A study of Mus musculus with 46 samples.

Results

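The Rab8a promoter fragment, named P009 in the deposited tables, is a stretch of 450 bases around the start of the mouse gene Rab8a. It was chosen by that name, as either member of a fragment pair of the Klf2 locus in an assay called Upstream and as the promoter of the reporter in an assay called Downstream. This gave 640 of the 19789 Upstream constructs of the Klf2 locus and 201 of the 2364 Downstream constructs. No measured value entered the choice. The series asked which candidate cis-regulatory elements (cCREs, fragments with marks of possible enhancers) go with which promoters when both are taken out of their genomic place. It used massively parallel reporter assays, in which each plasmid carries a barcode that is read in RNA and in plasmid DNA. Activity is the ratio of both, on a linear scale whose unit is not given in the sources used here.

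All values come from E14TG2a, an established line of mouse embryonic stem cells kept undifferentiated by 2i and LIF (kinase inhibitors and leukaemia inhibitory factor). Plasmids were brought in by nucleofection and the cells harvested 24 h later. The samples form 2 groups, neither with a treatment or an altered gene. One is reporter RNA of cells given the Upstream mix of Klf2 and Nanog libraries with negative controls (3 biological replicates). The other is reporter RNA of cells given the Downstream mix (3 biological replicates). Replicates are separate transfections of the same plasmid pool, so the errors given leave out differences between plasmids of a construct. The reporters are transient plasmids, not chromosomal copies.

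RAB8A is a small GTPase of the Rab family. In its GTP-bound form it sits on vesicles that leave the trans-Golgi network and recycling endosomes and recruits the machinery that carries them to the plasma membrane and to the base of the primary cilium. It is made in many tissues, and genes of that kind often have promoters rich in CpG and without a TATA box. An enhancer raises transcription from a promoter from either side and in either orientation, and a promoter fragment can itself act as an enhancer of another promoter.

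P009 lies on chromosome 8 at 72160824 to 72161274, as the files give it (genome build mm10, named in the submitters' processing notes, with no statement on whether starts count from 0 or 1). It overlaps the start of Rab8a (gene ID 17274, 72161200 to 72181366 on the forward strand in RefSeq, GRCm38.p6), with 376 bases before and 74 bases after that start. The 250 bases before the start, chr8:72160950-72161199, forward strand, from RefSeq, are shown because they make up most of the fragment. Capitals mark matches to CCAAT, the letters of the CCAAT box.

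Rab8a: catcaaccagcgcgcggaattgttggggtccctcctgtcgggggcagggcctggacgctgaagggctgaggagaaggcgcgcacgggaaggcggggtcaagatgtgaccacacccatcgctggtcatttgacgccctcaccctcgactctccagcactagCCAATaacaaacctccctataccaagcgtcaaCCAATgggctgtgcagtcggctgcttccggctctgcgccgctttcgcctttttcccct

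The 2 matches start 90 and 58 bases before the gene start, both on the forward strand. CCAAT or its reverse complement ATTGG was found in 33.8% of the 32851 RefSeq promoter windows of the same build. TGACG or CGTCA, a partial match to the cAMP response element, also matched 2 times, 122 and 64 bases before the start, against 17.8% of windows with a match. CTTCCGG, the reverse complement of the ETS core CCGGAAG, matched 35 bases before the start (6.91% of windows have either). Neither GGGCGG or CCGCCC, the GC box (32.7% of windows), nor TATAAA or TTTATA, the TATA box (12.4%), was found in these letters. The window had 61.6% G or C and an observed over expected CpG of 0.764, against medians of 52.4% and 0.373 over all windows. These are matches of letters and say nothing of binding.

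In the Upstream assay P009 was read in 4 arrangements. It stood next to the reporter behind 1 of 80 cCREs in 222 constructs and behind another promoter in 74. It stood first, away from the reporter, before a cCRE in 262 constructs and before another promoter in 82. In the Downstream assay P009 drove the reporter and an insert lay behind it, which was a cCRE in 122 constructs, a promoter fragment in 40 and a shuffled or random control sequence in 39. A plus sign after a fragment's name stands for its forward and a minus sign for its reverse orientation, as the files list them. In P009+ this is the direction in which Rab8a is read. Values of single replicates are given in the order 1, 2, 3.

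Between replicates, log2 activities had a Pearson r of 0.92 to 0.95 over the 222 constructs of a cCRE and P009 and 0.97 to 0.98 over the 201 Downstream constructs, as a description, since constructs share fragments. No P009 construct had a replicate at 0, against 2.59% of all Klf2 constructs. The error grew as activity fell. The median SD between replicates was 0.11 on the log2 scale for a cCRE before P009+ and 0.51 for P009+ before a cCRE, where the median activity was 0.293 and replicate 2 was lowest and replicate 3 highest in median. Barcode and read numbers were not analysed here. The depth of each construct is therefore unknown, and no counting interval can be given.

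On its own P009 was an active promoter of middle rank among the 23 of the Klf2 locus. P009+ gave 2.24, 2.03 and 2.02, and P009- 1.21, 1.03 and 1.15. The 3 values of each orientation do not overlap with those of the other. The difference was 0.89 ± 0.08 on the log2 scale (SD, n = 3). Over all 46 oriented promoter fragments, P009+ was 15th and P009- 19th from the highest mean.

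Each other promoter was compared with P009 in the same orientation by limma on log2 activity, with Benjamini-Hochberg (BH) adjustment and an adjusted p under 0.05 as the threshold, as in all tests here. Of 44 comparisons, 14 were higher than P009 (31.8%) and 28 lower (63.6%). The highest was P022+, the promoter of Smim7, at 19.8, 19.4 and 16.6, which is 3.14 above P009+ on the log2 scale (SE 0.13, adjusted p = 4.4e-05). P017+ (Eps15l1), P003+ (Zfp961), P021+ (Med26, a Mediator subunit) and P014+ (within Ap1m1) followed, 2.74, 2.07, 1.92 and 1.56 above P009+.

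The Klf2 promoter itself, P016+, lay below P009+ with 1.37, 1.20 and 1.49 (difference −0.64, SE 0.13, adjusted p = 0.0047). Klf2 encodes a zinc finger transcription factor of the pluripotency network. The test did not separate 2 promoters from P009+. P019+ (Cherp) gave 2.16, 2.09 and 2.00, a difference of −0.01 (SE 0.11, adjusted p = 0.92). P012+ gave 1.12, 0.0133 and 0.244, so its difference of −3.77 has an SE of 1.63 (adjusted p = 0.067). At the low end, P026+ (F2rl3, a protease-activated receptor gene) differed from P009+ by −4.58 and P005+ by −4.47. The replicates of P026+ spread from 0.0189 to 0.284, all below those of P009+.

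The forward orientation of P009 was the more active one where P009 stood next to the reporter, and the medians were near 0 where it stood first. Among 87 pairs that differ only in the orientation of P009 behind a cCRE, the forward one was higher by a median of 1.01 (−0.29 to 2.03) on the log2 scale, in 81 pairs in every replicate and lower in 2. Behind another promoter the median was 0.90, and all 34 pairs were higher forward in every replicate. These are close to the 0.89 of P009 alone. With P009 first, the medians were 0.03 before 104 cCREs (−1.88 to 2.89) and 0.01 before 38 oriented promoters (−0.87 to 0.88). Of the 104 pairs, 32 were higher forward in every replicate and 16 lower, and of the 38, 12 and 8.

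Constructs with a cCRE before P009 were more often lower than higher against P009 alone, and more often higher than lower against the median construct. Of 222 constructs, 19 were higher than P009 alone and 57 lower. Over all 3685 cCRE and promoter constructs of the Klf2 library with a value, those with P009 included, 4.1% were higher and 12% lower. The median difference was −0.25 with P009 and −0.28 over all. The baseline was itself above the median construct of P009. Sample titles list single fragments and combinations of the Klf2 locus as separate libraries, and a difference between these was not tested. This holds for every comparison of a pair with a fragment alone. P009+ alone gave 2.24, 2.03 and 2.02, and the median construct 1.90, 1.77 and 1.75. Set against that median construct, 31 were higher and 21 lower (4.83% and 2.42% over all). Against P009 alone, the replicate as a block gave 16 higher and 45 lower of 135 with P009+, and 10 and 28 of 87 with P009-. Without the block these were 12 and 37, and 7 and 20. Shares over all constructs with the block are not given here. With any 1 of the 3 replicates left out, limma called none (66 to 104 constructs had an unadjusted p under 0.05). Such a test rests on 4 values, and why none passed was not tested.

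The cCRE that raised P009 most was E007, which overlaps the start of Zfp617, a zinc finger gene, at 71922525 to 71922975, 238 kb from P009. E007- before P009- gave 4.35, 5.11 and 5.45, against 1.21, 1.03 and 1.15 for P009- alone, a log2 difference of 2.13 (SE 0.15, adjusted p = 0.0064). E007+ before P009- gave a difference of 2.07. Before P009+ the differences were 1.74 for E007- and 1.59 for E007+, both also past the threshold. All 4 orientations of the pair were thus higher in every replicate. E007+ alone was more active than either of its pairs with P009 behind it, with 9.07, 9.31 and 7.57 alone.

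E097, within Nwd1 at 72676845 to 72677295 and 516 kb away, came next. E097+ before P009+ gave 7.64, 7.42 and 6.34 (difference 1.76, SE 0.13, adjusted p = 0.0065), and E097- before P009- 3.93, 3.65 and 3.14 (difference 1.65, SE 0.14, adjusted p = 0.0068). E097- before P009+ gave a smaller difference of 0.72. The fragment beside it, E098, starts 11 bases further on and did the opposite. All 4 of its constructs were lower, from −0.86 to −1.60, with 0.602, 0.648 and 0.840 for E098- before P009+ (adjusted p = 0.0077).

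By the mean boost index over orientations, the leading cCREs were E007, E097, E011, E082 and E088. The boost index is log2 activity minus that of the median construct with the same oriented promoter, here per replicate. Upstream this median was taken over cCRE constructs, and Downstream over cCRE and shuffled control inserts together. It was 2.13 ± 0.19 for E007 (SD, n = 3), 1.62 ± 0.13 for E097 and 1.40 ± 0.11 for E011, which lies within Zfp961. E082 had 0.97 ± 0.15 and E088 0.89 ± 0.19. The last rests on 1 construct.

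At the other end, E103- (within Sin3b, a corepressor gene) before P009+ gave 0.630, 0.324 and 0.534, a difference of −2.13 (SE 0.28, adjusted p = 0.012). E030+, at the start of the uncharacterised gene Gm39196 at 72125819 to 72126269, lowered both orientations. It gave 0.504, 0.479 and 0.638 before P009+ (difference −1.97, SE 0.16, adjusted p = 0.0068) and 0.301, 0.145 and 0.402 before P009- (difference −2.12, SE 0.40, adjusted p = 0.028). E092- before P009- and E050+ before P009+ were lower by 1.62 and 1.61. Every replicate of these constructs lay below every replicate of P009 alone. The largest difference of all, −2.49 for E038- before P009-, did not pass (SE 0.83, adjusted p = 0.11), as its replicates ran from 0.0576 to 0.509. E038 lies within Hsh2d, 37.1 kb away, and both its constructs with P009+ were lower by 1.40 and 1.35. The lowest mean boost indices were those of E103 (−1.92 ± 0.47, 1 construct), E030 (−1.79 ± 0.45), E038 (−1.51 ± 0.74), E022 (−1.32 ± 0.38, 1 construct) and E050 (−1.08 ± 0.25).

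The cCREs next to Rab8a in the genome were taken as the 3 nearest on either side. E034, E033 and E032 lie 8.18, 11.8 and 24.1 kb before P009 within Tpm4, a tropomyosin gene. E035 and E036 lie 11.1 and 16.6 kb beyond it within Rab8a, and E037 31.2 kb beyond it within Hsh2d. In the Upstream assay 10 constructs of 5 of these 6 were measured and E032 in none. Of the 10, 6 were lower than P009 alone and none higher, against 25.7% lower and 8.56% higher of all 222 constructs with P009 and 12% and 4.1% over the library. With 10 constructs, none higher is near these shares. E036- before P009+ gave 1.098, 1.100 and 1.082, a difference of −0.94 (SE 0.11, adjusted p = 0.0097). E036+ and E036- before P009- differed by −0.74 and −0.72, E034+ before P009+ by −0.69, E037- before P009+ by −0.66 and E035+ before P009+ by −0.56. E037- before P009- went the other way without passing (0.48, SE 0.17, adjusted p = 0.14).

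Grouped by distance, 5 of 12 constructs within 25 kb were lower than P009 alone and none higher. At 25 to 100 kb 10 of 22 were lower and none higher. These constructs come from only 5 and 8 cCREs. At 100 to 250 kb 12 were higher and 16 lower of 82, and beyond 250 kb 7 higher and 26 lower of 106. Over all 222 constructs 19 were higher and 57 lower, and over the library 4.1% and 12%. Medians were −0.40, −0.66, −0.15 and −0.23. Across the 222 constructs the boost index had a Pearson r of 0.16 and a Spearman rho of 0.07 with log2 distance, a weak relation among constructs that share cCREs.

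The effect of a cCRE on P009 went with how active the cCRE was alone (r = 0.64, rho = 0.52, n = 222, constructs sharing both fragments and libraries). For most pairs the combined activity stayed below the sum of both fragments alone. Log2 of activity over that sum had a median of −0.39. It was below 0 in every replicate for 152 of 222 constructs and above 0 in every replicate for 29. The shares for other promoters are not given here, so these counts are not a trait of P009. Over the library, constructs had a median of −0.28 against their promoter alone. E061+ before P009- was farthest above, by 1.11 ± 0.30 (SD, n = 3), and E007- before P009+ was 0.85 ± 0.18 above. E038- before P009- was farthest below, by −2.67 ± 1.64.

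The boost index of P009 with each oriented cCRE was next tested against the mean index of the same cCRE over the other promoters. The SE and p leave out the spread between those promoters. A call therefore does not place P009 outside their range. Of 212 pairs 3 were higher and 2 lower, and over all 3648 pairs of the Klf2 library 0.356% were higher and 0.384% lower. E061+, between genes with Eps15l1 the nearest, had an index of 1.44, 1.78 and 1.46 with P009- against 0.382, 0.546 and 0.190 over 21 other promoters (difference 1.19, SE 0.15, adjusted p = 0.047). E009- and E095- were higher with P009- by 0.78 and 0.69. E050- with P009+ had −1.30, −1.41 and −1.16 against −0.315, −0.290 and −0.283 (difference −0.99, SE 0.10, adjusted p = 0.047), and E005- with P009+ was lower by 0.81. None of the 5 passed with the replicate as a block (adjusted p = 0.13 for each). With the block limma called 0 of 212 and 0% of all pairs, with 62 at an unadjusted p under 0.05, and it also called 0 with any replicate left out (28 to 48 at an unadjusted p under 0.05).

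By the profile of the boost index over shared cCREs, averaged over orientations, the promoters most like P009 in the Upstream assay were P021 (Med26, r = 0.91 over 76 cCREs), P017 (Eps15l1, r = 0.91 over 78) and P014 (within Ap1m1, r = 0.89 over 59). The least alike were P007 of the olfactory receptor gene Olfr374 (r = 0.39 over 64) and P005 (r = 0.53 over 57), which were 43rd and 45th of the 46 alone in forward orientation. The points of each share the libraries and the replicates. P009+ and P009- had an r of 0.84 over 87 oriented cCREs.

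How many pairs changed when the cCRE was turned around before P009 depended on the variance model. Of 85 pairs, 3 were higher with the cCRE forward and none lower, and over all 1226 such pairs 1.14% were higher and 0.163% lower. E072+ before P009+ gave 3.62, 3.64 and 2.42 against 1.09, 1.10 and 1.12 for E072- (difference 1.52, SE 0.20, adjusted p = 0.043). E005+ before P009+ gave 2.94, 3.13 and 2.69 against 1.20, 1.11 and 1.14 (1.34, SE 0.13, adjusted p = 0.026), and E061 differed by the same 1.34 before P009-. The groups of 3 do not overlap in these pairs. None passed with the replicate as a block (27 at an unadjusted p under 0.05, limma). The same 0 came with any replicate left out (7 to 16 at an unadjusted p under 0.05). With a variance trend in limma 19 were higher and 8 lower (9.79% and 5.95% over all), and without it 26 had an unadjusted p under 0.05.

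The same fragments were next compared in both orders. Activity was higher with P009 next to the reporter in 156 of 180 pairs and lower in 1. Over all 2575 such pairs of the library 48.6% were higher and 1.2% lower, and the median log2 difference was 2.08 with P009 against 1.03 over all. With P009+ 91 of 94 pairs were higher (median 2.65), and with P009- 65 of 86 (median 1.69). E003+ before P009+ gave 2.31, 1.93 and 1.69, and 0.0493, 0.0214 and 0.190 in the other order (difference 5.07, SE 0.81, adjusted p = 0.0033). E078-, E010-, E074- and E020+ with P009+ differed by 4.94, 4.55, 4.52 and 4.22, and E037- with P009- by 4.14. In these pairs no replicate with P009 first exceeded 0.325, and none overlapped with the other order.

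The exception was E008+, a fragment that shares 69 bases with E007. It gave 1.88, 1.74 and 1.62 before P009- but 2.88, 3.22 and 2.61 behind it (difference −0.73, SE 0.18, adjusted p = 0.018). E004- and E038- with P009- also had lower means with P009 next to the reporter, by −0.46 and −0.82, without passing. Without replicate 1 the count of higher pairs was 63 and that of lower pairs 0.

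Placed first, P009 still raised some cCREs. Of 255 constructs with the cCRE measured alone, 35 were higher than the cCRE alone and none lower, and over all 3930 such constructs of the library 27.8% were higher and 0.204% lower. The medians were 0.89 with P009 and 0.69 over all. With the replicate as a block 92 were higher and 2 lower (39.4% and 2.24% over all). Without replicate 1 none passed in limma (15 at an unadjusted p under 0.05), and without replicate 3 59 were higher. P009 before a cCRE differed from the median promoter before the same cCRE by a median of 0.13, with 22 of 262 higher and 1 lower (21.3% and 2.26% over all).

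E008+ was raised most. Alone it gave 0.185, 0.138 and 0.328, with P009+ before it 3.24, 3.97 and 2.84 (difference 4.03, SE 0.54, adjusted p = 0.0015), and with P009- 2.88, 3.22 and 2.61 (difference 3.83). E095- rose by 3.73 behind P009+ and 3.47 behind P009-. It gave 1.39, 1.45 and 1.31 behind P009- against 0.122, 0.0646 and 0.243 alone. E031+, within Tpm4 and 24.7 kb from P009, rose by 3.28 and E085+ by 3.25 behind P009+. In each of these constructs the replicates behind P009 lay above all those of the cCRE alone. At the other end, P009- before E011- gave 0.580, 0.714 and 0.587 against 1.67, 1.65 and 1.79 for E011- alone, a difference of −1.45 that did not pass (SE 0.48, adjusted p = 0.053) and that passed with the replicate as a block (adjusted p = 0.013).

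With another promoter placed before P009, the difference from P009 alone went with that promoter's own activity, with exceptions. Of 74 constructs 30 were higher than P009 alone and 19 lower, and over all 1317 promoter pairs of the library 29.9% were higher and 11.2% lower than their second promoter. Where the first promoter alone was more active than P009, 24 of 26 constructs were higher and none lower. Where it was less active, 6 of 48 were higher and 19 lower. Shares by strength for the other promoter pairs of the library are not given here. Log2 activity of the first promoter alone and the difference had r = 0.84 and rho = 0.84 over the 74 constructs, which share promoters and libraries. Without replicate 1 none passed in limma (31 at an unadjusted p under 0.05), and without replicate 2 21 passed. Against the median promoter pair with P009 second, 22 were higher and 23 lower (26.7% and 16.6% over all).

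P022 (Smim7) raised P009 most. P022+ before P009- gave 8.21, 9.54 and 7.53 (difference 2.89, SE 0.15, adjusted p = 7.1e-04) and before P009+ 11.7, 13.5 and 10.3 (difference 2.49). Even so, no replicate reached the 19.8, 19.4 and 16.6 of P022+ alone. All 4 constructs each of P022, P021 (Med26), P018 (Calr3 and 1700030K09Rik) and P019 (Cherp), and all 3 of P014, were higher. Mean differences were 1.95, 1.56, 1.40, 0.89 and 1.04. Of the 3 constructs of P016, the Klf2 promoter, 2 were higher, with 3.10, 3.24 and 3.39 for P016+ before P009+ (difference 0.63, adjusted p = 0.012).

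P004, the promoter of Cyp4f18, a cytochrome P450 of fatty acid metabolism, lowered P009 most. P004+ before P009+ gave 0.525, 0.422 and 0.592 (difference −2.05, SE 0.17, adjusted p = 0.0010), and all 4 of its constructs were lower, with a mean of −1.88. All 4 constructs of P007 (Olfr374) and of P010 (Hsh2d, an adaptor gene of lymphocytes) and both of P012 were lower as well, with means of −0.89, −0.88 and −1.25. These 4 fragments gave means of 0.12 to 0.46 alone in forward orientation. The highest of these is P012+, but both constructs of P012 carry it in reverse, which gave 0.123 alone. Low activity alone did not go with a drop in each case. P002 alone had 0.18, and its 3 constructs before P009 differed by 0.02 to 0.03 with none past the threshold.

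In the reverse arrangement, with P009 before another promoter, 18 of 82 constructs were higher than the second promoter alone and 1 lower (29.9% and 11.2% over the same 1317 pairs). With the replicate as a block 27 were higher and 6 lower (34.5% and 15.8% over all), and without replicate 1 none passed in limma (11 at an unadjusted p under 0.05). Without replicate 2, 11 passed. Against the median promoter before the same second promoter, 8 were higher and 1 lower (26.7% and 16.6% over all). P002, within Zfp882, rose most. It gave 0.145, 0.109 and 0.282 alone in forward orientation, 3.39, 4.01 and 3.15 behind P009+ (difference 4.41, SE 0.38, adjusted p = 0.0010) and 2.35, 2.66 and 2.04 behind P009- (difference 3.83). All 4 constructs each of P002 and P023 (Tmem38a) and all 3 of P016 (Klf2) were higher, with mean differences of 3.52, 2.50 and 1.49. P009+ before P016+ gave 4.46, 4.28 and 3.14 against 1.37, 1.20 and 1.49 for P016+ alone. The only lower construct was P009- before the strong P017+, with 8.86, 9.42 and 7.21 against 15.0, 15.0 and 12.2 (difference −0.73, SE 0.17, adjusted p = 0.022).

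In the Downstream assay the P009 vector without insert gave 1.25, 1.24 and 1.07, the 6th highest mean of 11 vectors. P022 led with a mean of 4.15, followed by P021 (2.56), P017 (1.60), P018 (1.30) and P014 (1.20). P013 (1.13) and P016 (1.10) came after P009 at 1.19, and P019 and P001 (0.389 and 0.354) lay above only the vector without promoter. The replicates of P018, P014, P013 and P016 overlap with those of P009, so their order is not resolved.

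The counts of inserts that raised or lowered P009 turned with the baseline. The control mean was 0.737, 0.698 and 0.642 in the 3 replicates. Against it 62 of 122 cCRE constructs were higher and 13 lower. Over all 1364 cCRE constructs of 10 promoters 37% were higher and 15.3% lower, and the median difference was 0.31 with P009 and 0.18 over all. Construct and control values of a replicate share a transfection, and with the replicate as a block 82 were higher and 26 lower (56.1% and 27.9% over all). Against the empty vector 13 were higher and 68 lower (10.6% and 42.4% over all), and against the median construct with P009 44 were higher and 29 lower (25.9% and 21.3% over all).

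The controls themselves spread widely. Their 39 constructs of 20 sequences had a log2 SD of 0.76, more than the 0.55 of the cCRE inserts. Their geometric means ran from 0.295 for a shuffled E006 to 3.22 for a shuffled E046, with a random sequence at 2.78 and the third highest at 1.48. None of the 122 cCRE inserts and none of the 40 promoter inserts lay outside that range. Still, 100 of the 122 lay above the median control of 0.622, and 14 above the third highest control. Of the controls, 31 lay below the empty vector in every replicate and 4 above it.

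E003+, between genes with Zfp709 the nearest and 267 kb from P009, was the highest cCRE insert with 2.28, 2.03 and 1.89 (difference from the control mean 1.58, SE 0.12, adjusted p = 5.8e-06). E008- gave 1.88, 1.73 and 1.68 (1.35), E031+ 1.82, 1.77 and 1.64 (1.33), and E011+, E006+ and E007- differed by 1.32, 1.31 and 1.27. Their lowest replicate is 1.52, above each replicate of the empty vector. E030- was the lowest with 0.334, 0.328 and 0.237 (−1.22, SE 0.14, adjusted p = 7.2e-05). E038+ gave 0.381, 0.322 and 0.290 (−1.07), E030+ was lower by 0.94 and E015- by 0.89, and E075- and E098+ were lower by 0.73 and 0.61.

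Averaged over orientations, the boost index Downstream was highest for E006 (0.98 ± 0.05, SD, n = 3), E087 (0.96), E007 (0.95), E042 (0.89) and E008 (0.83). E030 (−1.34 ± 0.16), E040, E098, E015 and E038 were lowest, the others between −0.86 and −0.67. The values of E087, E042 and E040 are not averages, as each was measured behind P009 in forward orientation only. E097 and E098, the neighbours with opposite effects in front of P009, had 0.54 ± 0.09 and −0.77 ± 0.08 behind it. For 5 cCREs shuffled versions were measured as well. In 2 of them the native constructs lay outside the range of the shuffled ones. Native E030 had mean activities of 0.30 and 0.36 against 0.51 to 0.76 in 6 shuffled constructs, and native E006 1.56 and 1.71 against 0.295 to 1.30 in 5. In the other 3 the native values lay within that range. They were 1.22 and 1.499 against 0.395 to 3.26 for E046, 0.87 and 1.04 against 0.45 to 1.23 for E027, and 0.91 and 0.94 against 0.39 to 1.26 for E095.

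Of the cCREs nearest to Rab8a, E034, E035 and E036 were measured in both orientations behind P009 and E037 in reverse. E035+ was the only one past the threshold against the control mean, with 1.09, 1.02 and 0.989 (0.58, SE 0.11, adjusted p = 0.0012). In each replicate it lay below the empty vector (1.25, 1.24 and 1.07). The SE and p also leave out the spread among the controls (log2 SD 0.76). The other nearest cCREs differed from the control mean by −0.22 to 0.29.

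Promoter fragments as inserts gave 22 higher and 5 lower of 40, against 44.8% and 14.3% of all 420 promoter inserts. Against the empty vector 7 were higher and 23 lower (17.9% and 40.5% over all), and against the median construct 16 and 11 (32.9% and 21% over all). With the replicate as a block the counts against the control mean were 25 and 8 (58.8% and 26.7% over all). The Klf2 promoter was highest. P016+ gave 2.25, 2.32 and 2.24 (difference 1.72, SE 0.11, adjusted p = 2.2e-06) and P016- 1.96, 1.81 and 1.78 (1.42). P003- (Zfp961) and both orientations of P018 differed by 1.45, 1.43 and 1.38, and P021+ (Med26) by 1.18. P008- was lowest with 0.374, 0.388 and 0.377 (−0.87, SE 0.11, adjusted p = 7.3e-05). P004+ (Cyp4f18) was lower by 0.60, P025+ (Sin3b), P001+ (Zfp882) and P019- (Cherp) by 0.45, 0.43 and 0.32.

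Each insert was also set against the same insert behind the other promoters. Their mean in each replicate was the baseline, so here too the SE and p leave out the spread between promoters. Of 121 cCRE inserts 44 had a higher boost index and 32 a lower one with P009, against 24.6% and 31.9% of all 1341 such pairs. The largest difference was that of E003+. Its index was 1.38, 1.29 and 1.29 against 0.0130, −0.0298 and 0.0447 over the other promoters (difference 1.31, SE 0.04, adjusted p = 5.7e-07). E075+ and E087+ were higher by 0.79 each, E009- by 0.72, E031+ by 0.70 and E019+ by 0.63. E038+ had −1.20, −1.37 and −1.42 against −0.544, −0.551 and −0.646 (difference −0.75, SE 0.06, adjusted p = 6.4e-05). E015- was lower by 0.47, and E075- and E073- by 0.39 and 0.38. Of the nearest cCREs, E035- was lower by 0.43 (SE 0.04, adjusted p = 1.2e-04), while E035+ differed by 0.01 (adjusted p = 0.83). E036+ and E036- were lower by 0.37 and 0.24, and E037- by 0.12. E034- was higher by 0.41, and E034+ differed by −0.12 without passing (adjusted p = 0.054). Within 25 kb, 2 of 8 inserts were higher and 3 lower, with a median of −0.07.

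Of 40 promoter inserts 13 were higher and 10 lower with P009 than with the other promoters, against 25.4% and 26.4% of all 417. The lowest were the Rab8a promoter behind itself. P009- behind P009+ gave 0.636, 0.600 and 0.540, an index of −0.465, −0.467 and −0.523 against 0.216, 0.202 and 0.0882 over the other promoters (difference −0.65, SE 0.04, adjusted p = 3.2e-05), and P009+ behind P009+ gave 0.644, 0.548 and 0.462 (difference −0.56, SE 0.07, adjusted p = 4.9e-04). Both lay below the empty vector in every replicate, as did 31 of the 39 control inserts. Against the control mean, P009- and P009+ as inserts differed by −0.23 and −0.34. Neither passed in limma (adjusted p = 0.11 and 0.053), and both passed with the replicate as a block (adjusted p = 4.4e-04 and 1.7e-04). P025+ and P012+ were lower by 0.50 and 0.45. P024+ (Nwd1), P004- and P003- were higher by 0.78, 0.72 and 0.72, and P016+ and P016- by 0.61 and 0.59.

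As an insert behind the other vectors, P009 had its highest mean index in reverse with P021 (Med26), at 0.50, and its lowest with P001, at −0.30 forward and −0.31 in reverse. The profile of P009 over cCRE inserts was most like those of P013 (Fam32a, r = 0.87 over 69 cCREs), P017 (r = 0.85 over 70) and P016 (Klf2, r = 0.84 over 69), and least like P014 (r = 0.70) and P022 (r = 0.72).

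Turning the insert around behind P009 changed activity in many pairs. Of 52 pairs 20 were higher and 10 lower with the cCRE forward, against 23% and 18.3% of all 612. E003 differed by 1.53 (SE 0.16, adjusted p = 7.2e-05), with 2.28, 2.03 and 1.89 forward and 0.918, 0.639 and 0.613 in reverse. E020 and E075 were higher forward by 0.92 and 0.91. E038 was lower forward by 1.31 (SE 0.14, adjusted p = 9.2e-05), with 0.381, 0.322 and 0.290 against 0.967, 0.784 and 0.721, and E105 and E005 by 1.06 and 1.03. E005 thus had the opposite sign to its difference of 1.34 before P009+. With the replicate as a block the counts were 26 and 18 (44.1% and 36.4% over all). Without replicate 2 they were 9 and 6, and without replicate 3 they were 10 and 7.

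Over 117 oriented cCREs measured with P009+ in both assays, the boost indices had r = 0.53 and rho = 0.48. The assays are separate transfections with the cCRE at different places. For the other 9 promoters r was 0.15 to 0.67 over 29 to 131 oriented cCREs. The medians that set 0 in the index differ too. Upstream the median was over 135 cCRE constructs of P009+. Downstream it was over 151 constructs, 122 with a cCRE and 29 with a shuffled control. The median activity was 0.859 for those cCRE inserts and 0.667 for those controls, so the signs are relative to unlike sets. Of the 117, 60 had the same sign in every replicate of both assays and 27 opposite signs. Such counts are not given here for the other promoters. Some opposite signs lie near 0, such as means of 0.08 Upstream and −0.05 Downstream for E044-. E007, E011 and E097 were above 0 and E030 and E098 below 0 in their mean index in both. E087+ was below 0 Upstream and above 0 Downstream. E003+ had 0.28, 0.13 and −0.04 Upstream against 1.38, 1.29 and 1.29 Downstream.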

How the data were processed

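Activity is a ratio of barcode reads in reporter RNA to those in plasmid DNA, deposited by the authors per construct and replicate on a linear scale. Bowtie2 and mm10 are named in the submitters' processing notes, their role is not stated, and further steps are not given in the sources used here. Of 46 samples, 6 were used (2 mixes, 3 replicates each), and 9 columns of per-replicate values were not used. Log2 activity was compared by limma 3.58.1 (R 4.3.3; Python 3.11.15, pandas 2.3.3), 3 values against 3, without a replicate block, with BH adjustment over all constructs of a fit in the Klf2 or the Downstream library and an adjusted p under 0.05. The fit was tested on simulated data. Constructs with a replicate at 0 stayed out of the fits. Construct and baseline values of the same number come from the same transfection, so the replicate as a block was an alternative, beside another baseline, a pseudocount of 0.01 that keeps zeros, a filter on mean activity under 0.1, a variance trend and each replicate left out. Constructs named are the 6 with the largest difference in each direction past the threshold, those of the Klf2 promoter and of the 3 nearest cCREs on each side, the 5 cCREs with the highest and the 5 with the lowest mean boost index per assay, and the promoters with the 3 highest and 2 lowest profile correlations; where fewer than 3 passed, the 3 largest differences are values only. Others, such as E098, were chosen after their values were seen. The members and lists were chosen with earlier results of these data known. Positions are the files' own, and exons and introns were not analysed here.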

Additional observations from a re-analysis of the deposited data

Results flagged for a closer look

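Of 117 oriented cCREs, 27 had a boost index with P009+ of one sign in every Upstream replicate and of the other sign in every Downstream replicate. The difference between the assays was not tested. They differ in the place of the cCRE, the plasmid, the transfection and the set of constructs whose median is 0 in the index. The count for other promoters is not given here. The 8 given here have one of the largest differences in a comparison or are among the nearest cCREs. E087+, within Gm51538, had a mean of −0.82 Upstream and 0.96 Downstream. E005- had −0.65 and 0.45, E035+ −0.34 and 0.32, E009- −0.29 and 0.48, and E018+ −0.17 and 0.33. The other direction was seen for E005+, with 0.69 Upstream and −0.58 Downstream, E105+, with 0.50 and −0.52, and E076+, with 0.33 and −0.22. E005+ gave 0.63, 0.82 and 0.62 Upstream and −0.58, −0.52 and −0.64 Downstream.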

How the results depend on the processing

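Leaving out 1 replicate gave medians and counts of calls in these ranges: other promoters against P009 −2.60 to −2.07 and 34 to 42, a cCRE before P009 −0.27 to −0.22 and 0, against other promoters −0.035 to −0.013 and 0, the other order 1.89 to 2.31 and 63 to 149, P009 before a cCRE 0.71 to 1.12 and 0 to 59, a promoter before P009 0.11 to 0.20 and 0 to 40, P009 before a promoter 0.30 to 0.64 and 0 to 22, cCRE orientation Upstream 0.0011 to 0.045 and 0. Downstream they were 0.31 to 0.34 and 61 to 78 for cCREs, 0.31 to 0.37 and 18 to 27 for promoter inserts, 0.0065 to 0.044 and 62 to 71 and 8e-04 to 0.020 and 16 to 22 against other promoters, and 0.091 to 0.13 and 15 to 32 for orientation. With the replicate block, calls numbered 0 for a cCRE against other promoters, 94 for P009 before a cCRE, 33 for P009 before a promoter and 0 for orientation Upstream. With a variance trend they numbered 137 for a cCRE before P009, 0, 57, 31 and 27 (19 higher, 8 lower) for these same 4. A cCRE against other promoters had 0 calls with the low-value filter, 13 against the median over other promoters and 12 with the pseudocount. For these settings, a variance trend or a replicate left out, shares over all constructs are not given here. Orientation Upstream with the trend is the exception. The other counts therefore cannot set P009 apart from the library. With the median construct as baseline the median was −0.0046 for a cCRE before P009, 0.13 (23 calls) for P009 before a cCRE, −0.048, a change of sign, for a promoter before P009, 0.013 (9 calls) for P009 before a promoter, and 0.053 and 0.085 for cCRE and promoter inserts Downstream. Against the vector alone these last were −0.47 and −0.43, a change of sign. Against the median over other promoters, promoter inserts had a median of 0.044. E038- with P009- in both orders turned to 0.26 without replicate 1 (−1.62 to 0.26 over the 3). Of the named constructs 124 kept their call with the block, 8 lost it and 4 gained it, and 85, 109 and 112 kept it without replicate 1, 2 and 3. The causes were not tested. Leaving out a replicate leaves fewer values per test. Depth is unknown, and low activities had the widest replicate spread.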
